A study of Homo sapiens with 12 samples.

Results

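Eosinophil granules carry a small set of very basic proteins and enzymes, and 6 genes that encode them were followed in HL-60 cells during exposure to decitabine. The 6 genes were taken by symbol from the 60240 genes of the deposited table, and all 6 were found: EPX, PRG2, PRG3, CLC, RNASE2 and RNASE3. HL-60 is an established human promyelocytic leukaemia line, here of wild-type genotype per the labels. Cells were seeded in duplicate wells at 100000 cells per mL and received either DMSO, the vehicle, or decitabine at 100 nM, added at 0, 24 and 48 h, per the labels' protocols. Total RNA was taken at 6, 72 and 120 h, so that cells taken at 6 h had met only the first addition. Decitabine, an analogue of deoxycytidine, becomes part of newly made DNA and binds DNA methyltransferases covalently there, so that methylation is lost as cells divide. Values were analysed for 11 libraries, 2 in each of the 6 groups except DMSO at 72 h, which had 1. The duplicates were wells of 1 cell line with no label of a separate culture. Their spread, which the p-values rest on, may be technical.

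The major basic protein encoded by PRG2 forms the crystalline core of the eosinophil's specific granule, and PRG3 encodes its homologue. EPX encodes eosinophil peroxidase, a haem enzyme that turns halide and thiocyanate ions into oxidants, and it lies with the ribonucleases in the matrix around that core. RNASE2 encodes the eosinophil-derived neurotoxin and RNASE3 the eosinophil cationic protein, a pair of close copies in the ribonuclease A family with antiviral and antibacterial activity respectively. CLC encodes galectin-10, the protein of Charcot-Leyden crystals, which is stored in the cytoplasm of eosinophils in large amounts. These genes are transcribed mainly in eosinophil precursors, where GATA1, C/EBP factors and PU.1 act on them, and promyelocytes of other granulocytes also make some of the products, RNASE2 in particular.

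Promoter sequence was available for 4 of the 6 genes and is shown because the 4 differ in which of the binding words of these factors they hold. Each sequence runs from 250 to 36 bases before the RefSeq transcript start (GRCh38.p14), 5′ to 3′ on the coding strand. Capitals mark every match, on either strand, to 3 words: GATAA (read TTATC on the other strand) for GATA factors, TTGCNNAA for C/EBP factors and GAGGAA (read TTCCTC on the other strand) for PU.1. No 2 matches overlap.
PRG3, chr11:57381186-57381400, minus strand: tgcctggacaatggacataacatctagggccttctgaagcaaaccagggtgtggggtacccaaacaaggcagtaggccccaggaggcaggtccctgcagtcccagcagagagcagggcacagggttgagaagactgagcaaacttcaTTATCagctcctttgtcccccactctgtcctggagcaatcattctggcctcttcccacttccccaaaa
CLC, chr19:39738065-39738279, minus strand: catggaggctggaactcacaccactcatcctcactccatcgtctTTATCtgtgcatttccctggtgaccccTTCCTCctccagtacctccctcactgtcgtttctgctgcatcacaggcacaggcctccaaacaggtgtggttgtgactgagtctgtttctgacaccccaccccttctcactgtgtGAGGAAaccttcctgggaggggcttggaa
RNASE2, chr14:20955237-20955451, plus strand: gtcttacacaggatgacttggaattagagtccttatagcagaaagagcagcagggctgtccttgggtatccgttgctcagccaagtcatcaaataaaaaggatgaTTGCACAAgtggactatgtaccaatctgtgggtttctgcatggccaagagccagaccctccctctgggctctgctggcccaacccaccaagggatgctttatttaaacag
RNASE3, chr14:20891135-20891349, plus strand: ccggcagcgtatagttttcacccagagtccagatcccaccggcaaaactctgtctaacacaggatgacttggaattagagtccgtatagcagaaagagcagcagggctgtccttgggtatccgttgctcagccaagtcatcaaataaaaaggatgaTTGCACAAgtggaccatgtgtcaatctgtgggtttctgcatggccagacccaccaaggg
A GATAA word stood in the promoters of PRG3 and CLC, and 18.2% of all 35116 promoters of this length held one. The C/EBP word stood in RNASE2 at 145 to 138 bases before the start and in RNASE3 at 94 to 87 bases, in both as TTGCACAA, and 8.12% of promoters held it. Both distances count from the RefSeq start, which differs from the GENCODE start given below, so they depend on the annotation. CLC held the PU.1 word once on each strand, against 20.3% of promoters with at least 1. The RNASE2 and RNASE3 windows could be aligned over 157 bases, of which 151 (96.2%) were identical, and the C/EBP word lay inside that stretch. Of CpG dinucleotides, the sites of DNA methylation, PRG3 held 0, RNASE2 1, CLC 2 and RNASE3 5, where the median of all promoters was 9 and the quartiles were 2 and 19. A match to a word is a description of these letters and not a binding site, and no methylation or binding was measured here.

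In the GENCODE annotation of GRCh38, EPX lay on chromosome 17 (58192737 to 58205174, plus strand, 13 exons) and CLC on chromosome 19 (39731250 to 39738028, minus strand, 4 exons). The other members lay in pairs. PRG2 (57386794 to 57390657) and PRG3 (57376769 to 57381150) stood on the minus strand of chromosome 11, 5644 bases apart. RNASE3 (20891399 to 20892348) and RNASE2 (20955452 to 20956436), with 2 exons each, stood on the plus strand of chromosome 14, 63104 bases apart. RNASE2 and RNASE3 transcripts were 88.9% identical over the 720 aligned bases, yet few of their 50-base stretches, the length of a read, were shared: 23 of 706 in RNASE2 and 36 of 671 in RNASE3 occurred in another gene. For PRG2, 791 of its 1838 exonic bases (43.0%) also belonged to AP000781.2, a transcript on the same strand, and reads there could be assigned to either gene. AP000781.2 itself was at 1982 normalised counts with decitabine and 2320 with DMSO at 120 h (group means).

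The libraries held 14427335 to 32908453 counts, estimated from a step, the most frequent low nonzero value of each library, taken as 1 count. Of the 6 members, all but PRG2 were whole multiples of that step in every library, which gave their read counts directly. The deposited values are counts that the authors normalised between libraries, called normalised counts below. The decitabine duplicates of 72 h differed by a median absolute log2 difference of 0.59, against 0.19 to 0.26 in the other duplicates. A single transcript, FP671120.7, took 3.89 to 10.9% of counts in the 4 libraries of 120 h and 5.25% in decitabine 72 h replicate 1, against at most 0.794% in the other 6. As a check of the labelled cell line, MPO, the myeloperoxidase that marks promyelocytes, stood at 86061 to 178349 normalised counts over the 11 libraries.

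After 120 h of decitabine all 6 granule protein genes were higher than in DMSO, by 5.16-fold for RNASE2 up to 113-fold for CLC. At 72 h EPX, PRG2 and PRG3 had risen, and the values of CLC, RNASE2 and RNASE3 were above DMSO but did not pass the test. At 6 h no member passed the test. The test was limma's moderated test on log2(value + 1) over 16152 genes, two-sided, with Benjamini-Hochberg adjustment over all of them and a call at an adjusted p under 0.05. The members called higher were 6 of 6 at 120 h, where 9.91% of all genes were called higher, 3 of 6 at 72 h, where 1.88% were, and 0 of 6 at 6 h, where 0% of all genes were called by limma and 541 had an unadjusted p under 0.05. Both decitabine libraries lay above the DMSO libraries of their own time in 6 of 6 members at 72 h and at 120 h, as they did in 37.5% and 36.1% of all genes. At 6 h they did so in 2 of 6 members and in 18.2% of all genes. The effect itself differed from that at 6 h in 6 of 6 members at 120 h (4.27% of all genes in that direction) and in 3 of 6, EPX, PRG2 and PRG3, at 72 h (0.557%). With 1 library left out in turn these counts ran from 4 to 6 and from 0 to 5. Over the 6 members the median log2 fold change was -0.04 at 6 h, 2.24 at 72 h and 4.51 at 120 h, where that of all genes was -0.01, 0.09 and 0.07. RNA came from whole wells, so more cells that make these transcripts and more transcript per cell cannot be told apart.

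**Figure D1:**
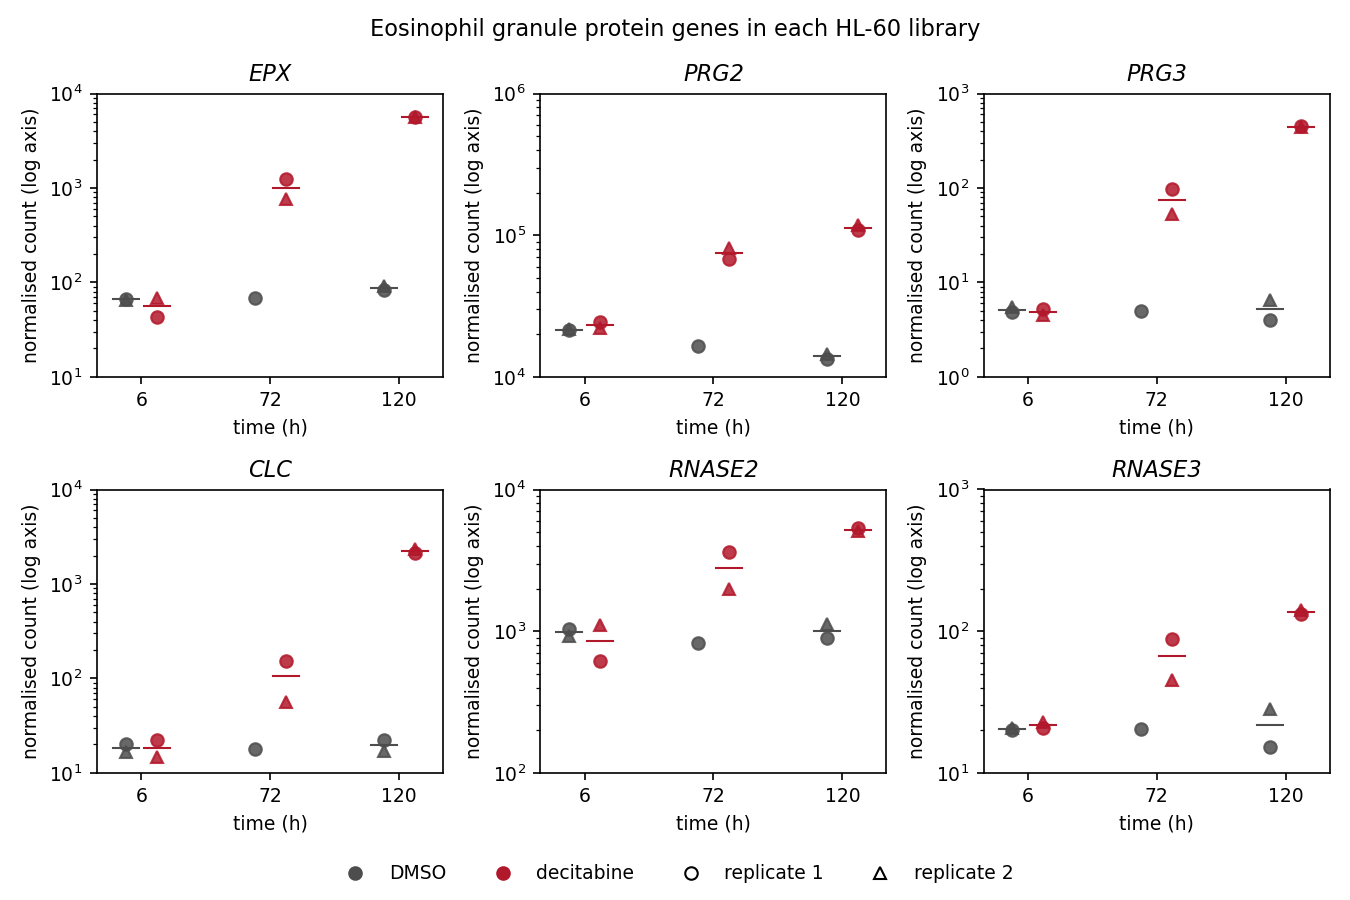
Normalised count (log axis) of each granule protein gene against time (h) in the 11 libraries; grey marks are DMSO and red marks decitabine, circles are replicate 1, triangles replicate 2, and short lines the mean of 2 libraries. The decitabine libraries of 72 and 120 h lie above the DMSO libraries of the same time in each of the 6 panels. At 6 h 4 of the 6 genes have overlapping treatments, and in the other 2 both decitabine libraries lie above both DMSO libraries. The share of all genes with decitabine above DMSO in this way was 18.2% at 6 h, 37.5% at 72 h and 36.1% at 120 h.

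EPX, the peroxidase, was low in HL-60 cells and rose steeply. In DMSO it stood at 67.3 and 65.3 normalised counts at 6 h, 68.3 at 72 h, and 83.0 and 92.5 at 120 h. With decitabine it stood at 43.1 and 68.8 at 6 h, 1244 and 769.5 at 72 h, and 5582 and 5693 at 120 h. Treated and untreated libraries overlapped at 6 h and were far apart at both later times, and the 120 h duplicates were close to one another. The mean was 14.7-fold above DMSO at 72 h, a log2 fold change of 3.82 (SE 0.347, limma adjusted p = 0.00263). At 120 h it was 64.2-fold above, a log2 fold change of 5.99 (SE 0.284, limma adjusted p = 4.74e-05). Among the genes of the table, EPX moved from rank 9190 and 9001 by level in the DMSO libraries of 120 h to rank 305 and 294 with decitabine.

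PRG2, the major basic protein gene, was abundant before any treatment. Its DMSO libraries stood at 21239 and 21668 normalised counts at 6 h, 16506 at 72 h, and 13438 and 14471 at 120 h. The decitabine libraries stood at 24320 and 22287 at 6 h, 67657 and 81829 at 72 h, and 108091 and 118412 at 120 h. With DMSO the later libraries were the lower ones, while with decitabine the later libraries were the higher ones. The log2 fold change was 2.17 (SE 0.213, limma adjusted p = 0.00283) at 72 h, a 4.53-fold difference of means, and 3.02 (SE 0.174, limma adjusted p = 6.66e-05) at 120 h, an 8.12-fold difference. In the decitabine libraries of 120 h PRG2 was the gene of rank 7 and 5 by level, and in the DMSO libraries of that time it was of rank 110 and 96. Its own share of all counts was 0.783 and 0.899% against 0.0935 and 0.0966%, and it made up most of the 6 members' summed share of 0.881 and 1.00% against 0.101 and 0.105%.

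The lower PRG2 values of the later DMSO libraries did not pass the test. Between DMSO libraries of 120 and 6 h the log2 difference was -0.62 (unadjusted p = 0.00669, limma adjusted p = 0.824). EPX differed in the other direction, by 0.40 (limma adjusted p = 0.959). No gene was called in either comparison of DMSO libraries over time by limma, where 865 genes (120 h) and 456 genes (72 h) had an unadjusted p under 0.05, and the other 5 members had log2 differences of -0.01 to 0.40 between 120 and 6 h. Over all 5 DMSO libraries EPX ranged from 65.3 to 92.5, CLC from 16.5 to 22.4, RNASE2 from 824 to 1123 and RNASE3 from 15.2 to 28.2.

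PRG3, which encodes the homologue of major basic protein, was close to silent without decitabine. In DMSO it stood at 4.8 and 5.5 normalised counts at 6 h, 4.98 at 72 h, and 3.99 and 6.44 at 120 h, which rested on 5 to 10 reads in a library. With decitabine it stood at 5.2 and 4.5 at 6 h, 96.9 and 52.5 at 72 h, and 448 and 444 at 120 h. Since its DMSO libraries were all under 10, PRG3 passed the filter on low values only through its decitabine libraries. The log2 fold change was 3.60 (SE 0.480, limma adjusted p = 0.00971) at 72 h and 6.20 (SE 0.392, limma adjusted p = 8.84e-05) at 120 h, where the means differed 85.5-fold. PRG2, the neighbour and homologue of PRG3, was abundant in the same DMSO libraries, and the PRG3 transcript shared no 50-base stretch with PRG2 or any other gene.

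CLC, the galectin-10 gene, had the largest fold change of the members at 120 h. Its DMSO libraries stood at 20.2 and 16.5 normalised counts at 6 h, 17.9 at 72 h, and 22.4 and 16.9 at 120 h. The decitabine libraries stood at 22.4 and 14.7 at 6 h, 154 and 56.0 at 72 h, and 2105 and 2333 at 120 h. At 72 h both treated libraries were above the DMSO library but differed 2.74-fold between themselves, and the log2 fold change of 2.31 (SE 0.552) did not pass the test (limma adjusted p = 0.0757). At 120 h the log2 fold change was 6.76 (SE 0.450, limma adjusted p = 0.000106), the 15th highest of all 16152 genes.

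RNASE2, which encodes the eosinophil-derived neurotoxin, was already moderately expressed. In DMSO it stood at 1036 and 927 normalised counts at 6 h, 824 at 72 h, and 890.3 and 1123 at 120 h. With decitabine it stood at 617 and 1098 at 6 h, 3641 and 1973 at 72 h, and 5317 and 5069 at 120 h. The 6 h duplicates under decitabine lay on either side of the DMSO pair, and from 72 h on the treated libraries lay above all DMSO libraries. The log2 fold change was 1.70 (SE 0.411, limma adjusted p = 0.0782) at 72 h, which was not called, and 2.38 (SE 0.336, limma adjusted p = 0.00286) at 120 h.

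RNASE3, its close copy for the eosinophil cationic protein, was far scarcer. In DMSO it stood at 20.2 and 20.6 normalised counts at 6 h, 20.4 at 72 h, and 15.2 and 28.2 at 120 h. With decitabine it stood at 20.7 and 22.8 at 6 h, 87.9 and 44.9 at 72 h, and 132 and 142 at 120 h. The log2 fold change was 1.58 (SE 0.487, limma adjusted p = 0.144) at 72 h, which was not called, and 2.67 (SE 0.398, limma adjusted p = 0.00356) at 120 h, where means differed 6.32-fold. At 120 h the 95% interval of the log2 fold change ran from 1.61 to 3.14 for RNASE2 and from 1.76 to 3.58 for RNASE3, so that the intervals overlapped over most of their length.

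**Figure D2:**
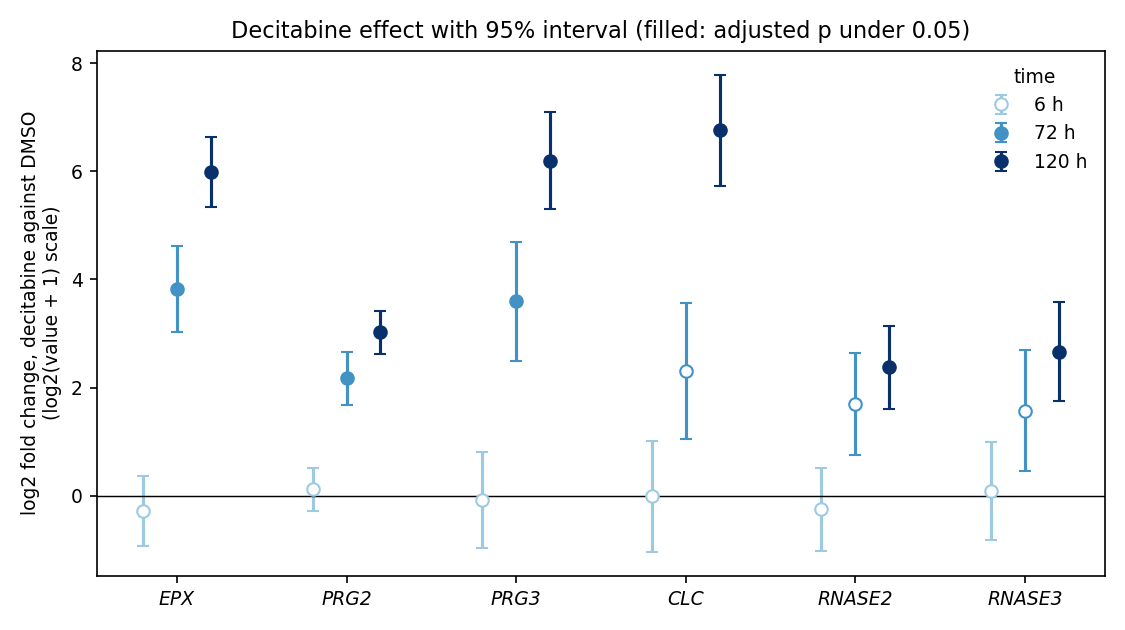
Log2 fold change of decitabine against DMSO (log2(value + 1) scale, vertical axis) for each gene at 6, 72 and 120 h, with 95% intervals from limma; filled points passed an adjusted p of 0.05. Points at 6 h lie near 0, 3 of 6 are filled at 72 h and 6 of 6 at 120 h, with CLC highest at 6.76.

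How much of the 120 h level was already present at 72 h differed widely between the members. The mean decitabine level at 72 h was 66.0% of that at 120 h for PRG2, 54.0% for RNASE2 and 48.5% for RNASE3. For EPX it was 17.9%, for PRG3 16.8% and for CLC 4.72%. Over all pairings of a 72 h with a 120 h library the share ran from 2.40 to 7.30% for CLC and from 13.5 to 22.3% for EPX. For PRG2 it ran from 57.1 to 75.7%, so these 3 ranges did not overlap. The ranges of RNASE2 (37.1 to 71.8%) and RNASE3 (31.7 to 66.5%) overlapped that of PRG2. That of PRG3 (11.7 to 21.8%) overlapped that of EPX. The level without decitabine was not subtracted. At 120 h it was a mean of 1007 against 5193 with decitabine for RNASE2, and 19.6 against 2219 for CLC. Between the decitabine libraries of the 2 times, CLC (log2 difference 4.56, SE 0.450, limma adjusted p = 0.0247) and EPX (2.52, SE 0.284, limma adjusted p = 0.0346) were called, as were 0.124% of all genes in that direction. The other 4 were higher at 120 h without a call, from 0.60 for PRG2 (limma adjusted p = 0.209) to 2.63 for PRG3 (limma adjusted p = 0.0693). Both calls were sensitive to single libraries: none of the 6 was called when any 1 of the 8 libraries of 6 and 120 h was left out, and all 6 were called without decitabine 72 h replicate 1. The direct test of whether the decitabine effect was larger at 120 than at 72 h called no gene, with CLC at the lowest unadjusted p (log2 difference 4.45, unadjusted p = 0.000198, limma adjusted p = 0.276), and 1022 genes had an unadjusted p under 0.05.

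The duplicates at 72 h were ordered alike for 5 of the 6 members. Replicate 1 was above replicate 2 by 1.62-fold for EPX, 1.84-fold for PRG3, 1.85-fold for RNASE2, 1.96-fold for RNASE3 and 2.74-fold for CLC. PRG2 went the other way, with replicate 2 1.21-fold above replicate 1. Over all genes tested, 48.7% were higher in replicate 1. Leaving this pair out in turn, 5 members were called at 72 h without replicate 1 and 6 without replicate 2, and the log2 fold change of CLC was 1.59 on the lower and 3.03 on the higher of its libraries.

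Per length of transcript, PRG2 stood above the other members in every group. At 120 h with DMSO, PRG2 reached 7592 normalised counts per kb of exon and RNASE2 1333, while EPX (30.7 and 34.2), CLC (35.2 and 26.6) and RNASE3 (21.1 and 39.1) overlapped and could not be ordered, and PRG3 was lowest at 4.59 and 7.41. With decitabine the order was PRG2 at 61617 per kb, RNASE2 at 6879, CLC at 3495, EPX at 2082, PRG3 at 513 and RNASE3 at 190, and no neighbours in this order overlapped. EPX, CLC and RNASE3 overlapped per kb with DMSO and stood well apart with decitabine.

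**Figure D3:**
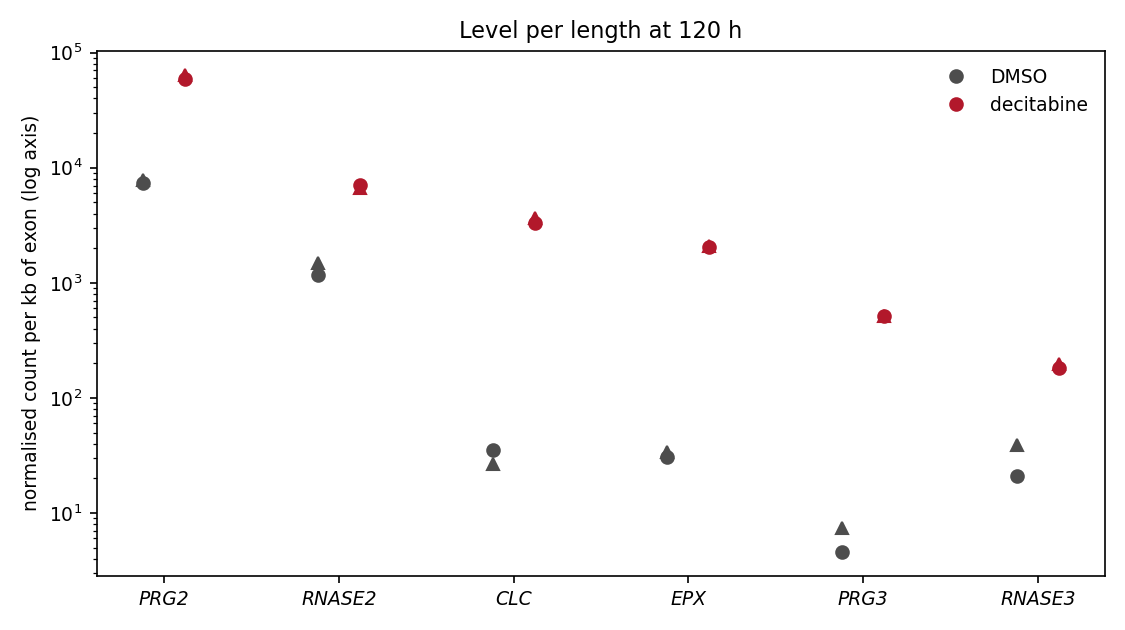
Normalised count per kb of exon (log axis) of each granule protein gene in the 2 DMSO (grey) and 2 decitabine (red) libraries of 120 h; circles are replicate 1 and triangles replicate 2. EPX, CLC and RNASE3 overlap near 30 with DMSO and are separate, at 2082, 3495 and 190, with decitabine.

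Most receptors and surface proteins of a list drawn up for eosinophils were higher at 120 h, as the granule genes were. Whether these genes are particular to eosinophils was not tested. Late neutrophil markers rose as well, with 7 of 13 tested called higher and a median log2 fold change of 2.42 at 120 h. Of the list of 19, all of which were tested, 17 were called higher and 0 lower at 120 h, and 5 were called higher at 72 h. Over all genes 9.91% were called higher and 6% lower at 120 h, and 1.88% were called higher at 72 h. In 4 of the 19, IL1RL1, PTGDR2, CCR3 and CD69, all DMSO libraries were under 10, so these passed the filter on low values only through decitabine libraries. The list's median log2 fold change was 3.04 at 120 h and 1.33 at 72 h. IL5RA, the receptor chain that makes eosinophil precursors respond to interleukin-5, stood at 7.3 to 13.2 normalised counts in DMSO and at 802 and 828 in decitabine libraries of 120 h (log2 fold change 6.23, limma adjusted p = 0.000139). IL1RL1, the receptor of interleukin-33, stood at 2.1 and 4.1 against 492 and 477 (log2 fold change 6.92). PTGDR2, a prostaglandin D2 receptor known as CRTH2, stood at 1.6 in both DMSO libraries against 274 and 266 (log2 fold change 6.70). IL5RA had reached 244 and 218 at 72 h, where EPX and PRG2 had also risen and CLC had not passed the test. The 2 members that were not called were the integrin chain ITGA4 and the interleukin-3 receptor chain IL3RA.

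**Figure D4:**
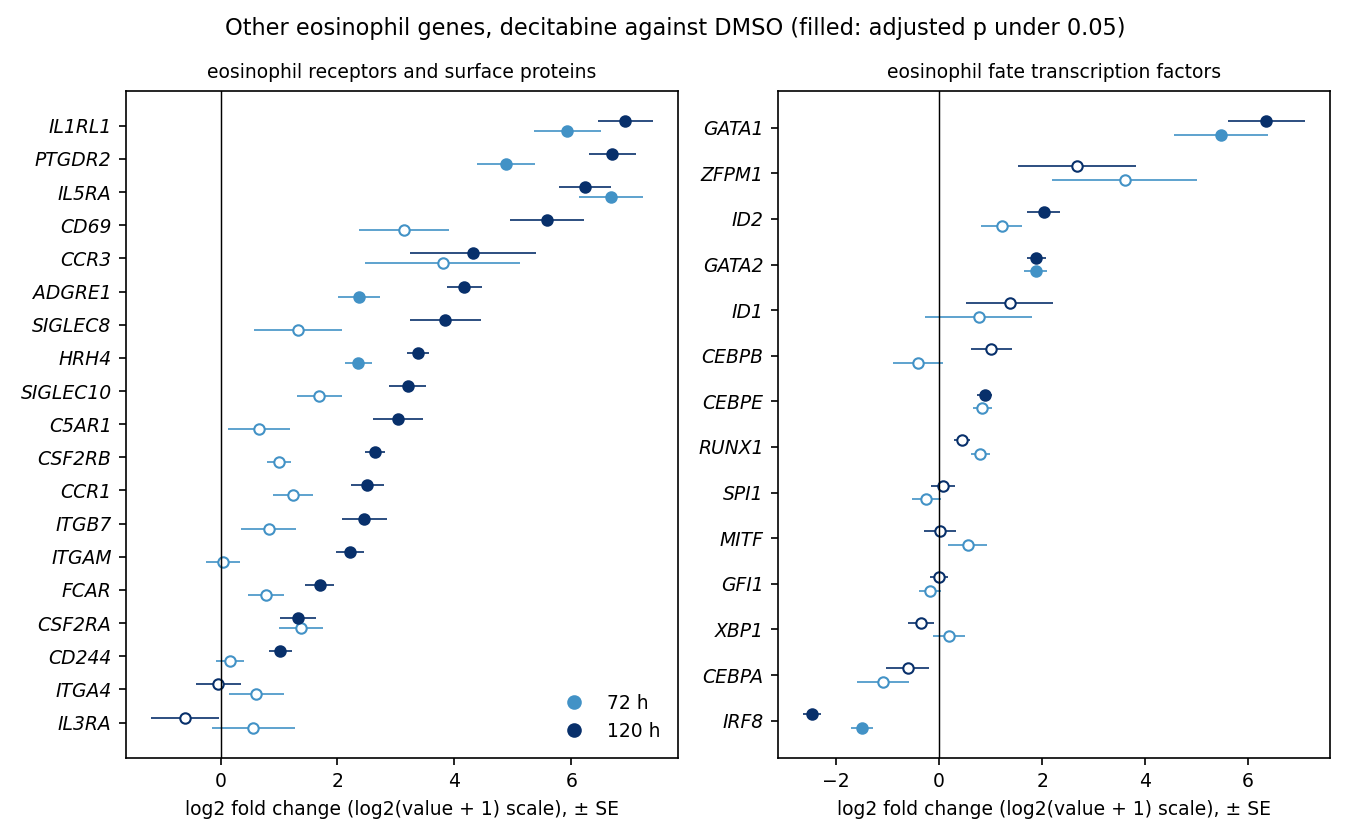
Log2 fold change (log2(value + 1) scale, horizontal axis) of decitabine against DMSO at 72 h (light) and 120 h (dark) for eosinophil receptors and surface proteins (left) and for transcription factors of eosinophil fate (right); bars are ± SE and filled points passed an adjusted p of 0.05. Of 19 receptors 17 are filled on the right of 0 at 120 h, while the factors are filled on the right for 4 of 14 and on the left for IRF8 alone. Over all genes 9.91% were called higher and 6% lower at 120 h.

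Among 14 transcription factors of eosinophil and neighbouring fates, 4 were called higher and 1 lower at 120 h. The shares of all genes were 9.91% higher and 6% lower. In 2 of the 14, GATA1 among them, all DMSO libraries were under 10, so these passed the filter on low values only through decitabine libraries. GATA1, which directs the eosinophil, mast cell and erythroid fates, was listed at 0 in both DMSO libraries and stood at 81.5 and 80.1 with decitabine (limma adjusted p = 0.00121). It was already at 55.5 and 34.3 in the decitabine libraries of 72 h and listed at 0 in the DMSO library. GATA2, its relative in precursors, rose from 232 and 252 to 897 and 893 (log2 fold change 1.88, limma adjusted p = 0.000516), and CEBPE, a factor of late granulocytes, from 1299 and 1505 to 2565 and 2608 (0.89, limma adjusted p = 0.00501). ID2, a helix-loop-helix inhibitor, rose by a log2 fold change of 2.03. IRF8, which drives the monocyte fate, fell by 2.47 on the log2 scale, from 1030 and 1008 to 176 and 191 (limma adjusted p = 0.00012).

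SPI1, which encodes PU.1, and CEBPA did not pass the test. SPI1 stood at 617 and 594.5 with DMSO and 636 and 639.7 with decitabine at 120 h (log2 fold change 0.08, limma adjusted p = 0.865). CEBPA stood at 1962 and 1741 against 1120 and 1301 (-0.61, limma adjusted p = 0.368), and ZFPM1, a GATA cofactor that opposes the eosinophil fate, at 7.1 in both decitabine libraries against 0 and 0.6. The list's counts depended on the decitabine 72 h pair: without either library of it, 6 factors were higher and 3 lower.

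Genes of other eosinophil products were also higher. In a list of 14 eosinophil markers and lipid mediator enzymes, 13 were tested, and 8 were called higher and 0 lower at 120 h. In 7 of the 13 tested, all DMSO libraries were under 10. These 7 passed the filter on low values only through decitabine libraries, so they could hardly have been called lower. The shares of all genes were 9.91% higher and 6% lower. P2RY14, a receptor for UDP-sugars, was listed at 0 in both DMSO libraries of 120 h and stood at 108 and 76.5 with decitabine (limma adjusted p = 0.000541). In DMSO it was at 11.4 and 3.5 at 6 h and 0.8 at 72 h. The decitabine libraries of 72 h stood at 3.7 and 7.4, below 1 of these DMSO libraries. SMPD3, a sphingomyelinase, stood at 0.4 and 1.3 against 64.9 and 79.1, and ALOX15, the lipoxygenase of eosinophils, at 0 and 2.7 against 81.1 and 41.9.

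Of 14 granule packing and secretion genes, 4 were called higher and 1 lower at 120 h, with a list median of 0.48. At that time 9.91% of all genes were called higher and 6% lower. CD63, a granule membrane tetraspanin, rose by a log2 fold change of 1.85, STX3, a fusion protein, by 1.47, and RAB27A, a docking GTPase, by 1.32. SRGN, the proteoglycan core that holds basic proteins in granules, rose from 40261 and 36097 to 86969 and 88464 normalised counts (limma adjusted p = 0.0466). VAMP8, another fusion protein, fell by 0.71 on the log2 scale. Among 8 haem synthesis genes, which supply the cofactor of EPX, ALAS1 was higher (0.68) and UROD lower (-0.82), and the other 6 were not called.

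Of the members' relatives in 3 gene families, 11 were tested and 4 were called at 120 h, 3 higher and 1 lower, where 15.9% of all genes were called in either direction. Of 11 other ribonuclease A genes, RNASE6 alone was tested, and it stood at 36.7 and 47.5 with DMSO against 94.1 and 74.1 with decitabine at 120 h (log2 fold change 0.98, limma adjusted p = 0.0481). RNASE1, the nearest gene before RNASE3, was at no more than 0.897 normalised counts in any library. Of 8 other haem peroxidases, 5 were tested and PTGS2 was called higher (2.58), while MPO, the nearest relative of EPX in granulocytes, stood at 178349 and 122740 with DMSO and 116822 and 106597 with decitabine (-0.41, limma adjusted p = 0.383). Of 13 other galectins, 5 were tested, LGALS3 was called higher (3.33) and LGALS9 lower (-1.40). LGALS14 and LGALS16, the 2 nearest genes on one side of CLC, were at no more than 1.67 and at 0.

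Of the 17 nearest protein-coding neighbours that are no members, 9 were tested. RNASE6 was called higher at 120 h and 3 others were called lower, where 9.91% of all genes were called higher and 6% lower. MKS1, a cilium gene whose nearest end lies 263 bases from EPX, stood at a mean of 276 with DMSO and 111 with decitabine at 120 h and was called lower (log2 fold change -1.28, limma adjusted p = 0.00514). LPO, the peroxidase gene next after it, stood at 5.09 and 7.68 (0.48, limma adjusted p = 0.756). Around PRG2 and PRG3, SLC43A3 was not called (-0.65, limma adjusted p = 0.289), SSRP1 was called lower (-1.07, limma adjusted p = 0.0476), and P2RX3, 6169 bases from PRG3, was at no more than 2.01. METTL17, beyond RNASE2, was called lower (-0.92, limma adjusted p = 0.0161), while the RTN4RL2 gene beyond PRG2 and DYRK1B beyond CLC were not called.

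Markers of other blood cells moved at the same time, and their part in the result was not tested. Over all genes 9.91% were called higher and 6% lower at 120 h. Of 13 basophil and mast cell markers, 6 were tested and 2 rose at 120 h: HDC, the histamine-forming enzyme (0 and 0.6 against 103 and 108), and CPA3, a mast cell protease (10.7 and 3.1 against 78.5 and 73.6). In 2 of the 6 tested, HDC among them, all DMSO libraries were under 10, so these passed the filter on low values only through decitabine libraries. The list's summed level ran from 5437 to 6498 with DMSO and from 11060 to 11320 with decitabine, most of it MS4A3, and 2 of 13 were at 0 in both decitabine libraries. Of the defining mast cell tryptases, TPSAB1 was at 1.6 and 0 with decitabine and TPSD1 at 0. TPSB2 was at 2.2 and 15.1 (7.2 and 4.8 with DMSO, not called). FCER1A, the IgE receptor chain, was at 0 in both DMSO libraries and at 4.5 and 4.3 with decitabine. ENPP3, also of this list, was at 0 and 0.3 against 7.0 and 10.3. FCER1A and ENPP3 were too low to be tested. Of 15 late neutrophil markers, 13 were tested, 7 rose and MMP8 fell, with a list median log2 fold change of 2.42. Among the 13 tested, 3 were under 10 in all DMSO libraries and passed the filter only through decitabine libraries. The summed level ran from 7505 to 7876 with DMSO and from 39134 to 41625 with decitabine. The largest rises were in MMP9, a gelatinase (0 and 3.2 against 227 and 223, log2 fold change 6.78), LCN2, an iron-carrier binding protein (2.2 and 1.5 against 54.6 and 50.1, 4.23), and FPR1, a formyl peptide receptor (19.5 and 27.1 against 221 and 231, 3.24). Lactoferrin (LTF), which defines the neutrophil's specific granule, was at 29.7 and 34.0 against 9.7 and 13.1 and was not called.

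Of 12 monocyte and macrophage markers, 9 were tested, 4 rose, CD14 and CD68 among them, and 2 fell (CCR2 and MS4A7), with summed levels of 1156 to 1259 with DMSO and 2899 to 2952 with decitabine. Among those tested, 1 was under 10 in all DMSO libraries and passed the filter only through decitabine libraries. Over all genes 9.91% were called higher at 120 h and 6% lower. Of 15 erythroid and megakaryocyte markers, ITGA2B rose (14.5 and 21.4 against 352 and 346) among 3 tested, the summed level ran from 84.8 to 92.8 with DMSO and from 448 to 456 with decitabine, and 10 of 15 were at 0 in both decitabine libraries. The globin genes HBA1, HBA2, HBB and HBG2 were at 0 in all 11 libraries. In the azurophil granule list of 8 genes, which marks promyelocytes, PRSS57, BPI and LYZ rose, 4 of 8 had a log2 fold change above 0, and the list median was 0.17. MPO, ELANE (771 and 909 against 368 and 397), PRTN3 and CTSG were below DMSO on average and were not called. The list's summed level ran from 250364 to 294746 with DMSO and from 393364 to 400786 with decitabine, and without LYZ, the lysozyme gene, from 129454 to 185143 and from 116277 to 126402.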

How the data were processed

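RNA was depleted of ribosomal RNA, made into stranded libraries (ScriptSeq v2) and sequenced as single-end reads of 50 bases, per the labels' protocols. DESeq2, featureCounts, limma, Salmon 1.2.1 and STAR, and the hg38 genome, are named in the submitters' processing notes without saying which did what. The deposited values are a signal per gene that the authors normalised between libraries. In a library, 59.3 to 65.3% of low values were whole multiples, within 0.01, of a step, too few to recover whole reads across the table, so no count test was run. The heading names 12 libraries over 11 columns of values, per the file headers, and its first name was taken to head the symbol field. DMSO 72 h replicate 2 was not analysed here. Libraries of a group then differed by a mean median absolute log2 difference of 0.299, against 0.439 between groups, and by 0.429 and 0.426 if read from the identifier.

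Values were transformed to log2(value + 1), so fold changes on that scale understate those of low genes, and fold changes given as "-fold" are ratios of group means. The filter asked for a value of 10 or more in 2 or more libraries and left 16152 of 60240 genes. limma 3.58.1 (lmFit, eBayes with a trend) in R 4.3.3 fitted 6 group means to 11 libraries, with 5 residual degrees of freedom, or 8.42 with those borrowed across genes. The lone DMSO library of 72 h takes its spread from the remaining groups. The script was tested on simulated data. The 6 members and the 14 gene lists were chosen with earlier results of these data known. Named were the members, GATA1, GATA2, ZFPM1, CEBPA, CEBPE, SPI1, IRF8 and IL5RA, the 3 largest called rises and falls at 120 h of each other list, the 3 genes most like each member, and the 2 nearest protein-coding neighbours on each side; other names were added after their values were seen, and 1 gene that the rule names is not reported here. Alternatives changed the pseudocount, filter, scaling, variance model, libraries and control group. Sequences came from RefSeq (GRCh38.p14) and positions from GENCODE, read with Biopython 1.88 in Python 3.11.15, and plots were drawn with matplotlib 3.10.9.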

Additional observations from a re-analysis of the deposited data

Results flagged for a closer look

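The decitabine effect on the granule protein genes differed between times, by limma's test of the difference between the log2 fold changes, adjusted over 16152 genes. Between 120 and 6 h this difference was called for all 6 members, where 4.27% of all genes were called in that direction: 6.77 for CLC (adjusted p = 0.00148), 6.28 for PRG3 (0.00143), 6.27 for EPX (0.000505), 2.90 for PRG2 (0.00135), 2.63 for RNASE2 (0.0188) and 2.58 for RNASE3 (0.036). The calls of RNASE2 and RNASE3 were lost in 8 and 9 of 21 alternatives, with adjusted p of up to 0.0884 and 0.134. That of RNASE2 was lost without any 1 library of 120 h, without decitabine 6 h replicate 1 and without either DMSO 6 h library. That of RNASE3 was lost without any 1 library of 6 h, without either decitabine 120 h library and without DMSO 120 h replicate 1.

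Between 72 and 6 h the difference was called for 3 members, where 0.557% of all genes were: 4.10 for EPX (limma adjusted p = 0.0128), 3.68 for PRG3 (limma adjusted p = 0.0469) and 2.05 for PRG2 (limma adjusted p = 0.0198). These rest on a single DMSO library at 72 h. They were lost in 6 of 20 alternatives for EPX, 14 of 19 for PRG3 and 9 of 20 for PRG2. No member was called without either decitabine 120 h library, without decitabine 6 h replicate 1 or without either DMSO 6 h library, 1 was called without decitabine 6 h replicate 2 or either DMSO 120 h library, and 5 were called without either decitabine 72 h library.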

How the results depend on the processing

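At 120 h, 5 to 6 members were called over 21 alternatives (PRG3 was not tested with at least 10 in every library), with log2 fold changes of 6.50 to 6.95 for CLC and 2.21 to 2.54 for RNASE2. At 72 h, 0 were called with only the 72 h libraries (1 residual degree of freedom), 6 against all 5 DMSO libraries, and 3 to 6 without 1 library. For the effect at 72 against 6 h, 0 were called with only the groups compared and 0 to 5 without 1 library, and for 120 against 72 h 0 to 4 without 1 library. Between decitabine libraries of 120 and 72 h, 1 was called without a trend, 0 with sample weights, 0 with only the groups compared, and 0 to 6 without 1 library. The cause of these moves was not tested. Of all genes, 353 were called at 72 h (0 to 4756 over the alternatives), 2570 at 120 h (789 to 5031), 99 for the effect at 72 against 6 h (1 to 3746), 953 at 120 against 6 h (225 to 3021) and 21 for decitabine at 120 against 72 h (0 to 5192). Where 0 were called, alternatives called up to 3 at 6 h, 2915 for the effect at 120 against 72 h, 116 for DMSO at 72 and 12 for DMSO at 120 against 6 h. At 6 h, uncalled signs turned without decitabine replicate 1 (EPX 0.0524, RNASE2 0.16), without its replicate 2 (PRG3 0.0065, CLC 0.28), and without DMSO replicate 1 (CLC 0.13) or replicate 2 (PRG3 0.00188), and the lowest values without 1 library were -0.61, -0.67, -0.17 and -0.30 for EPX, RNASE2, PRG3 and CLC. With the replicate number as a block, 1 member was called between decitabine libraries of 120 and 72 h instead of 2, the calls of PRG3 for the effect at 72 against 6 h and of RNASE3 at 120 against 6 h were lost, and no other call of a member changed. The deviations of replicate 1 from its group mean, over all genes tested, correlated between groups at -0.08 to 0.12, so the numbers were not taken as pairs. DMSO 72 h without its 1 library could not be fitted.

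The single DMSO library at 72 h, the distance between the decitabine 72 h libraries and 5 residual degrees of freedom limit what can be called at 72 h. In DMSO libraries PRG3 rested on 5 to 10 reads, CLC on 21 to 36 and RNASE3 on 19 to 41, so small changes in them were not detectable at this depth. Lists without the decitabine 72 h libraries were counted as an alternative chosen after seeing the data: without either, 17 receptors were higher as before, while called factors went from 4 higher and 1 lower to 6 and 3, other eosinophil markers from 8 higher to 11, granule packing genes from 4 to 6, azurophil genes from 3 and 0 to 4 and 1, late neutrophil markers from 7 and 1 to 8 and 2, monocyte markers from 4 higher to 5, and basophil and mast cell markers from 2 to 3.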

Other observations

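Across the 11 libraries, the genes whose log2 levels followed the members most closely by Pearson's correlation included several of myeloid cells, given as a description, since the libraries share treatments, times and scaling. Nearest to EPX were PILRA, an inhibitory receptor of myeloid cells (r = 0.997), PHLDA1 (0.995) and SERPINA1, which encodes alpha-1-antitrypsin (0.994). PHLDA1 was also nearest to PRG3 (0.995), followed by TLR8, an endosomal RNA sensor, and CR1, a complement receptor (both 0.995). Nearest to CLC was BPI, a bactericidal protein of azurophil granules (0.997), followed by KCTD12 and the kinase gene FGR. BPI stood at 886 and 838 normalised counts with DMSO at 120 h, 1725 and 1158.5 with decitabine at 72 h and 4058 and 4363 with decitabine at 120 h.

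PRG2 was followed most closely by SAMSN1 (0.992), LINC01088 (0.991) and LHFPL2 (0.991), and not by another member, the nearest of which was PRG3 (0.954), at place 172 of all genes. SAMSN1, an adaptor protein gene of blood cells, stood at 6615 and 7769 in decitabine 72 h replicates 1 and 2, the same order of the duplicates as in PRG2. For RNASE2 the nearest were SLC26A8 (0.982), EPX (0.982) and CD68 (0.981), and for RNASE3 they were PRG3 (0.985), VLDLR (0.985) and CCL5 (0.982).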
